A study of Homo sapiens with 9 samples.

Results

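Translation initiation factors were examined in human prostate cancer xenografts left after treatment with antibody-drug conjugates. The members were the genes whose name in the deposited count tables begins with EIF1 to EIF6, which gave 56 of the 16204 genes listed in either of 2 tables, and all 56 were listed in both. They include the initiation factors themselves, the kinases of eIF2 (EIF2AK1 to EIF2AK4), the eIF4E binding proteins and EIF4A3, a helicase of the exon junction complex that carries an initiation factor name. In the name search no argonaute gene was matched under its older symbol.

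RNA-Seq was performed on subcutaneous tumors of PC3, an established human prostate carcinoma line, grown in male NSG mice, which lack functional lymphocytes. Mice were 11 weeks old at injection and treatment began at a tumor volume of 90 mm3 per the series record. The 3 groups of 3 tumors received PBS as vehicle, or a conjugate at 5 mg/kg once a week by the retro-orbital route. The record gives 5 cycles, and tumors were collected at the end of the experiment. For the sequenced tumors the study's methods share the dose but differ in age, starting volume and number of cycles. The record's age, volume and cycles are those the methods give for a separate experiment with T-DXd at a higher dose. The antibody of P-DXd, patritumab deruxtecan, binds HER3, that of T-DXd, trastuzumab deruxtecan, binds HER2, and each releases a topoisomerase I inhibitor. The titles and the treatment fields of the 6 treated libraries name opposite conjugates, so each treated group is named after its title, P-DXd-titled or T-DXd-titled, and the comparison of all 6 with PBS holds whichever record is correct. Each library has its own animal code in the title; pooling of animals is not stated, and if tumors were sampled more than once the p-values would measure only the spread between samples.

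Initiation begins when eIF2 carries the initiator tRNA to the small ribosomal subunit together with eIF1, eIF1A, eIF5 and eIF3. The eIF4F complex, made of the cap-binding protein eIF4E, the scaffold eIF4G and the RNA helicase eIF4A, brings the subunit to the capped mRNA, and the eIF4E binding proteins compete with the scaffold for eIF4E. After the start codon is found, eIF5B joins the subunits, and eIF2B recharges eIF2 with GTP, a step that is blocked when eIF2 is phosphorylated by its kinases. Cancer cells commonly depend on high eIF4F activity.

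Libraries held 54481702 to 125538606 counts, with all PBS libraries above all treated ones in depth. Among PBS libraries, replicate 1 stood apart, with a chi-square per gene of 333 and 412 against the other two, which differed by 39.5 from each other. P-DXd-titled replicate 2 had a summed level of 6 skeletal muscle markers of 3390 CPM (counts scaled to the TMM-adjusted library size with the cpm function), against 0.739 to 38.3 CPM in PBS and 168 to 216 CPM in the T-DXd-titled group. Of the macrophage markers, CD68 was near 0 in all libraries. Their summed level was 5.65 to 9.51 CPM in PBS and 15.1 to 35.2 CPM in treated libraries. In the 6 treated tumors LYZ, AIF1 and CSF1R were called higher, with log2 fold changes of 3.29, 2.13 and 1.87. The macrophage marker EMR1 was called lower (-1.26), and CD14 (0.67) was not called. The summed level of 6 fibroblast markers was 1040 to 2040 CPM in PBS and 1200 to 2200 CPM in treated libraries. That of 3 endothelial markers was 2.51 to 4.17 and 3.04 to 4.41 CPM. The epithelial markers KRT8, KRT18, KRT19 and EPCAM had PBS means of 305 to 647 CPM, and KRT8 and KRT18 were called higher in the 6 treated tumors, with log2 fold changes of 1.31 and 0.69. KRT19 (0.58), EPCAM (0.56) and VIM (0.03), also listed as markers of PC3, were not called. The part of host cells in the results was not tested, and in these bulk samples fewer cells of a type and less RNA per cell cannot be told apart.

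Compared with PBS, 7 of the 54 members tested were changed in the 6 treated tumors. EIF4A1, EIF4EBP1 and EIF2B5 fell, while EIF4E3, EIF2S3L, EIF5AL1 and EIF1AY rose, and the other 47 were not called. A gene was called at a Benjamini-Hochberg adjusted p of at most 0.05 in edgeR's quasi-likelihood test and a fold change of at least 1.5. By this rule 32.2% of the 15070 genes tested were called, 15.2% higher and 17.1% lower. The members' counts of 4 higher and 3 lower lay below this background. EIF4A1, whose fall was known when the genes were chosen, is among the 3 lower, and without it 4 rose and 2 fell of 53. The remaining pair of members, EIF4E1B, a germline cap-binding protein, and EIF4EBP3 had at most 20 and 10 counts in any library and did not pass the filter on low counts.

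Small shifts were more common than called changes. The adjusted p alone was passed by 29 of the 54 members, 9 with a positive and 20 with a negative difference, against 55.7% of all genes tested. The median log2 fold change of the members was -0.16, against -0.01 for all genes, with 19 positive and 35 negative values. This median rested on PBS replicate 1: without it, the value was -0.02, with 26 positive and 28 negative values. No overlap between treated and PBS libraries was found for 20 members, 4 higher and 16 lower, while 50.5% of all genes tested did not overlap, 25.0% higher and 25.5% lower. Without EIF4A1, 28 members passed the adjusted p alone, and 4 higher and 15 lower did not overlap. Members together took 1.203% to 1.36% of all counts in PBS libraries and 1.08% to 1.24% in treated ones.

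**Figure D1:**
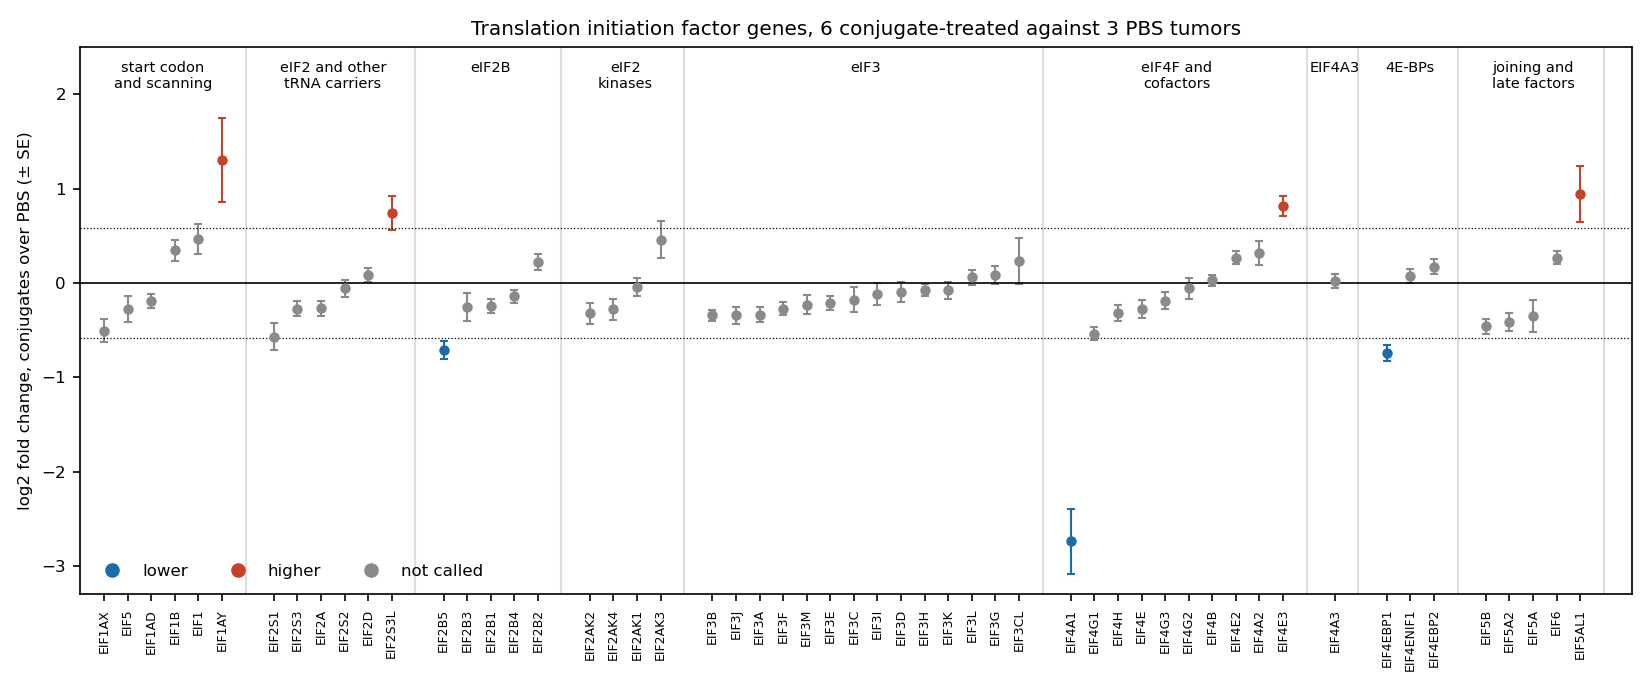
Log2 fold change of 54 members in 6 treated against 3 PBS tumors, on a vertical axis in log2 units, by complex (± SE from edgeR); dotted lines mark a fold change of 1.5. EIF4A1 lies at -2.74, all 14 eIF3 genes lie between -0.34 and 0.23, and called members are coloured.

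The 4 comparisons were also read separately. In P-DXd-titled tumors 1 member rose (EIF4E3) and 3 fell (EIF4A1, EIF2B5 and EIF4EBP1) of 54, where 25.0% of 14945 genes were called, 11.2% higher and 13.8% lower. The adjusted p alone was passed by 7 members, against 34.0% of all genes, and 21 members did not overlap between these groups, against 55.2%. In T-DXd-titled tumors 3 rose (EIF4E3, EIF1AY and EIF2S3L) and the same 3 fell, where 28.6% of 14915 genes were called, 13.1% higher and 15.5% lower. When each of the 6 libraries was left out in turn, the T-DXd-titled call of EIF2S3L was kept in 1 setting and that of EIF1AY in 2. Here 17 members passed the adjusted p alone, against 42.3% of all genes, and 32 did not overlap, against 61.3%. Both comparisons use the same PBS libraries. Between P-DXd-titled and T-DXd-titled tumors edgeR called 0 members, as did DESeq2, and 0 had an unadjusted p under 0.05, where 0.0273% of 14653 genes were called and 3.69% had an unadjusted p under 0.05. EIF2B4 and EIF4ENIF1, 2 of 54 members, were without overlap and lower in P-DXd-titled tumors, against 8.09% of all genes in either direction. The member differences between the conjugates lay between -0.50 (EIF1AY) and 0.21 (EIF4A2) on the log2 scale.

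Of the 11 genes of eIF4F and its cofactors, 10 were tested, EIF4A1 fell and EIF4E3 rose. EIF4A1 encodes the main helicase subunit, eIF4A1, which unwinds structured leader sequences of mRNAs. Its level was 13.1, 4.97 and 4.84 CPM in PBS replicates 1 to 3. The P-DXd-titled replicates had 1.19, 1.54 and 0.685 CPM, and the T-DXd-titled replicates 1.39, 1.24 and 0.807 CPM. Every treated library lay below every PBS library, and PBS replicate 1 lay far above the other two. The log2 fold change was -2.74 ± 0.35 (SE, 6 against 3, adjusted p = 9.82e-05 in edgeR), a 6.68-fold lower level, and 130 of the 15070 genes tested, EIF4A1 included, had a change as low or lower. This fall was known when the genes were chosen, so it is given, with its adjusted p and its place among all genes, as a description. Without PBS replicate 1 it was -2.09, and it was -2.73 in each conjugate taken alone.

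The counts behind EIF4A1 were few, at 544 to 1153 in PBS and 45 to 101 in treated libraries. Per kilobase of its canonical transcript, EIF4A1 had 4.34 CPM in PBS tumors, rank 48 of 56, while EIF4A2 had 181 CPM, rank 8. In the GENCODE v44 annotation, 99.9% of the canonical EIF4A1 transcript overlaps a lncRNA on the same strand that spans chr17:7572826-7582024 (GRCh38), and all of it overlaps some other gene. EEF1G and CD68, whose canonical transcripts overlap other genes over 99.5% and 100.0% of their length, were listed at 0 to 8 and 0 to 10 counts in any library. A read that falls in several genes is often left uncounted, the setting used is not given in the sources used here, and whether the EIF4A1 counts follow its mRNA was not tested. SENP3, upstream of EIF4A1, had a log2 fold change of -0.07 ± 0.10 (SE, adjusted p = 0.55 in edgeR), and MPDU1, downstream, had -0.23 ± 0.11 (adjusted p = 0.0875).

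EIF4A2 encodes the second cytoplasmic eIF4A helicase. It had 313, 333 and 378 CPM in PBS tumors, 402, 558 and 408 CPM in the P-DXd-titled group and 419, 393 and 374 CPM in the T-DXd-titled group. The highest value was that of P-DXd-titled replicate 2, and T-DXd-titled replicate 3 lay below PBS replicate 3, so the groups overlapped. The difference was, as a log2 fold change, 0.32 ± 0.12 (SE, adjusted p = 0.048 in edgeR), under the fold minimum. EIF4A3 had 233, 214 and 198 CPM in PBS tumors, 228, 198 and 212 CPM in the P-DXd-titled group and 214, 227 and 231 CPM in the T-DXd-titled group, overlapping groups with a log2 fold change of 0.02 ± 0.08 (adjusted p = 0.81). EIF4A1 made up 0.979% to 2.80% of the summed per-kilobase level of the 3 helicase genes in PBS and 0.130% to 0.257% in treated libraries. The canonical transcript of EIF4A1 overlaps other genes over 100.0% of its length, against 4.29% for EIF4A2 and 0.0% for EIF4A3. These shares are thus of counted reads, and whether they follow the mRNA of EIF4A1 was not tested.

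**Figure D2:**
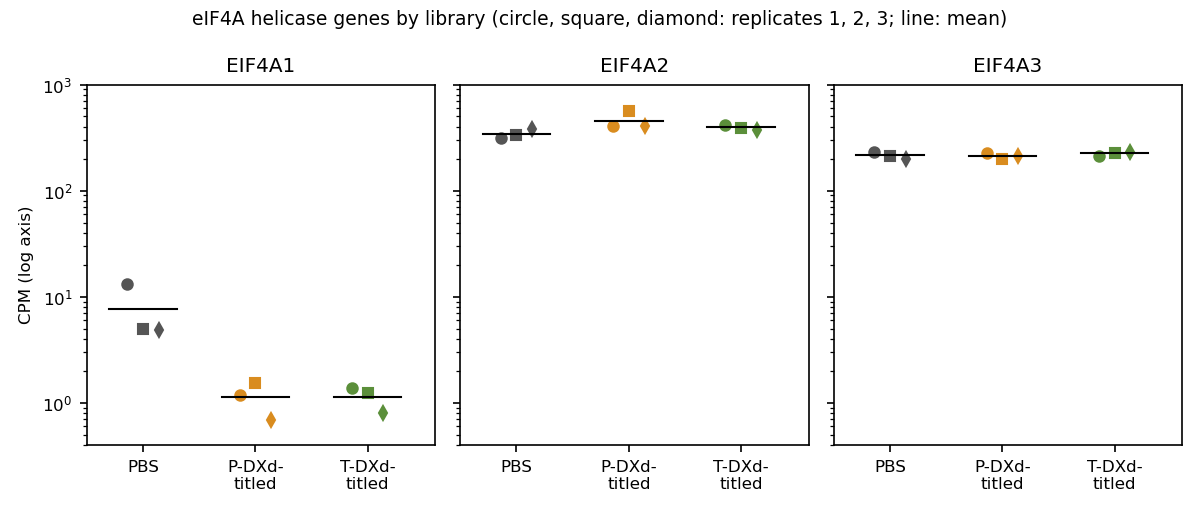
Levels of the 3 eIF4A helicase genes in CPM on a log axis, in each of 9 libraries, with the mean of each group as a line. EIF4A1 is at 4.84 to 13.1 CPM in PBS and 0.685 to 1.54 CPM in treated libraries, while EIF4A2 and EIF4A3 overlap between groups.

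The promoters of EIF4A1, EIF4A2 and EIF4G1 are shown because they carry different motifs; that of EIF4A3, not shown, held 1 E-box and 1 GC box. They are the 250 bases before the RefSeq start (GRCh38.p14), written 5′ to 3′ on the strand of the gene, with capitals marking GC boxes (GGGCGG on either strand) and E-boxes (CACGTG, its own reverse complement). The windows are chr17:7572575-7572824 (EIF4A1), chr3:186783327-186783576 (EIF4A2) and chr3:184314356-184314605 (EIF4G1), each on the plus strand.
EIF4A1: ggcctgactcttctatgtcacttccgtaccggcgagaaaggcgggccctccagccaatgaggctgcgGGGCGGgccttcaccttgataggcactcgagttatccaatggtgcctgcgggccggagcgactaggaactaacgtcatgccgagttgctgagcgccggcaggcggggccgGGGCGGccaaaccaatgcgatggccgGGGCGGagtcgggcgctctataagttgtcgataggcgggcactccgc
EIF4A2: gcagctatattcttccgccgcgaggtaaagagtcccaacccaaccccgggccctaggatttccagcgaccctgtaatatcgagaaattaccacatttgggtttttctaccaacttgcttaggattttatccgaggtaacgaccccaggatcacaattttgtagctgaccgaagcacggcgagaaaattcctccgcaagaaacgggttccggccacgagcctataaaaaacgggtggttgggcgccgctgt
EIF4G1: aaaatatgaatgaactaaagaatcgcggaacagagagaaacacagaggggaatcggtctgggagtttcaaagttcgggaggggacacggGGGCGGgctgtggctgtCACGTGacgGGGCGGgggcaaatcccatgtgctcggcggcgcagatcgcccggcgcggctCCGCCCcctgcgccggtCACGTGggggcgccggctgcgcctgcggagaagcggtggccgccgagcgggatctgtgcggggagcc
The EIF4A1 window held 3 GC boxes and no E-box, the EIF4A2 window held neither, and the EIF4G1 window held 2 E-boxes and 3 GC boxes. Of the 47 members with a promoter entry, 12 held an E-box (25.5%), against 7.73% of 27305 genes, and 35 held a GC box (74.5%), against 46.2%. A gene was counted if any of its listed windows held the motif. The 27305 genes are all those with a promoter entry and not only the genes tested here, so these shares are not a like comparison. Among the 11 tested members with an E-box, log2 fold changes had a median of -0.27 and lay between -0.54 and 0.34. The 34 tested members without an E-box had a median of -0.16. Of the 11 and the 34, 0 and 6 were called, against 32.2% of all genes tested. For the GC box the medians lay the other way, at -0.14 for the 33 tested members with one and -0.23 for the 12 without. These differences were not tested. These matches describe letters, not bound sites.

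EIF4E3, a member of the cap-binding eIF4E family, was even among PBS libraries, at 14.5, 14.8 and 14.8 CPM. The P-DXd-titled libraries had 24.5, 30.7 and 22.2 CPM and the T-DXd-titled libraries 25.1, 27.3 and 25.8 CPM. All 6 treated libraries lay above all PBS libraries. It rose by a log2 fold change of 0.82 ± 0.10 (SE, adjusted p = 0.000103 in edgeR), and by 0.82 and 0.83 with each conjugate alone. Without P-DXd-titled replicate 2, the library with the muscle markers, the value was 0.76, still called.

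EIF4G2, an eIF4G-related scaffold that does not bind eIF4E, had the highest level of the complex per kilobase in PBS tumors, 389 ± 45.9 CPM per kilobase (SD, n = 3). It had 1674, 1400 and 1351 CPM in PBS tumors, 1316, 1747 and 1252 CPM in the P-DXd-titled group and 1436, 1388 and 1378 CPM in the T-DXd-titled group. The groups overlapped and the log2 fold change was -0.06 ± 0.11 (SE, adjusted p = 0.691 in edgeR). EIF4G1, the main scaffold, was named after its values were seen. It had 878, 860 and 770 CPM in PBS tumors, 609, 559 and 613 CPM in the P-DXd-titled group and 549, 557 and 572 CPM in the T-DXd-titled group, with no overlap. Its log2 fold change of -0.54 ± 0.07 (adjusted p = 0.000117) missed only the fold minimum, and without PBS replicate 3 it was called (-0.59, adjusted p = 0.000143). In 8 of the 9 settings with 1 library left out EIF4G1 was not called, with -0.49 without PBS replicate 1. The remaining tested genes of this complex were not called, with log2 fold changes of -0.32 (EIF4H) to 0.27 (EIF4E2).

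Of the eIF4E binding proteins, 3 of 4 were tested and EIF4EBP1 fell. EIF4EBP1 encodes 4E-BP1, a repressor of cap-dependent initiation that mTORC1 inactivates by phosphorylation. Its level was 89.7, 75.9 and 75.5 CPM in PBS tumors, 45.0, 54.1 and 51.0 CPM in the P-DXd-titled group and 44.4, 48.7 and 44.5 CPM in the T-DXd-titled group. Each treated library lay below each PBS library. The log2 fold change was -0.75 ± 0.09 (SE, adjusted p = 6.13e-05 in edgeR), a 1.68-fold lower level, and it was -0.67 and -0.81 with the P-DXd-titled and T-DXd-titled groups alone. EIF4EBP2, its closest relative, had a log2 fold change of 0.17 ± 0.08 (adjusted p = 0.0978), and EIF4ENIF1, which carries eIF4E into the nucleus, had 0.07 ± 0.07 (adjusted p = 0.412).

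Of the 5 subunits of eIF2B, the exchange factor for eIF2, EIF2B5 fell. EIF2B5 encodes the catalytic epsilon subunit. Its level was 91.6, 73.7 and 67.7 CPM in PBS tumors, 51.9, 50.1 and 46.1 CPM in the P-DXd-titled group and 45.1, 48.0 and 43.3 CPM in the T-DXd-titled group. All treated libraries lay below all PBS libraries, with PBS replicate 1 highest. This gave a log2 fold change of -0.71 ± 0.10 (SE, adjusted p = 0.000153 in edgeR). Without PBS replicate 1 it was -0.57 (adjusted p = 4.21e-05), under the fold minimum and no longer called. The tables list EIF2B5 over 549721 bases, a span that overlaps 14 other listed genes including EIF4G1. In GENCODE v44, 0.944% of the EIF2B5 exon bases and none of its canonical transcript overlap another gene.

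The subunit with the highest level per kilobase in eIF2B was EIF2B1, the regulatory alpha subunit, with 90.1, 74.7 and 71.5 CPM in PBS tumors, 67.5, 66.5 and 65.2 CPM in the P-DXd-titled group and 66.1, 68.0 and 64.8 CPM in the T-DXd-titled group. These groups did not overlap, but the log2 fold change of -0.25 ± 0.08 (SE, adjusted p = 0.0169 in edgeR) was under the fold minimum; leaving out PBS replicate 1 gave -0.13 (adjusted p = 0.0528). The other three subunits had log2 fold changes of -0.25 (EIF2B3), -0.14 (EIF2B4) and 0.22 (EIF2B2), and none was called.

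**Figure D3:**
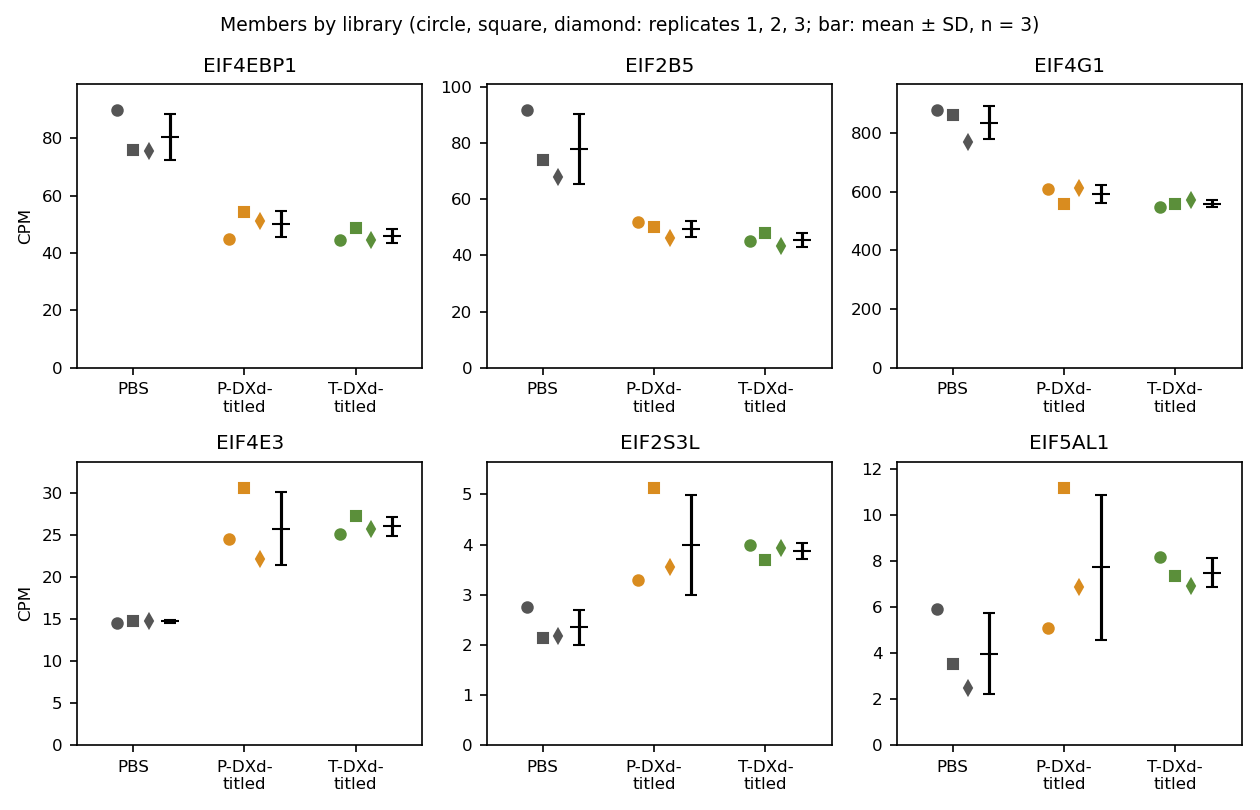
Levels in CPM of EIF4EBP1, EIF2B5, EIF4G1, EIF4E3, EIF2S3L and EIF5AL1 in each of 9 libraries, with the mean ± SD of each group (n = 3) at its right. The first 3 lie lower in every treated library, EIF4E3 and EIF2S3L lie higher in every treated library, and EIF5AL1 overlaps.

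Of the 6 genes for eIF2 and other carriers of initiator tRNA, EIF2S3L rose and the other 5 were not called. EIF2S3L is a copy of EIF2S3, the gamma subunit of eIF2, and reads could not always be assigned between such near-identical genes. It had 2.75, 2.13 and 2.17 CPM in PBS tumors, 3.30, 5.14 and 3.56 CPM in the P-DXd-titled group and 3.995, 3.70 and 3.93 CPM in the T-DXd-titled group. All treated libraries lay above PBS, with P-DXd-titled replicate 2 highest. The log2 fold change was 0.74 ± 0.18 (SE, adjusted p = 0.00532 in edgeR). Its raw counts overlapped, at 242 to 273 in PBS and 234 to 290 in treated libraries. The rise is thus in levels scaled for depth, and all PBS libraries were deeper than all treated ones.

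EIF2S3 itself had 657, 806 and 753 CPM in PBS tumors, 658, 604 and 589 CPM in the P-DXd-titled group and 625, 626 and 560 CPM in the T-DXd-titled group. P-DXd-titled replicate 1 lay just above PBS replicate 1, so the groups overlapped, with a log2 fold change of -0.28 ± 0.08 (SE, adjusted p = 0.0133 in edgeR). EIF2S1, the alpha subunit that the eIF2 kinases phosphorylate, had 518, 297 and 314 CPM in PBS against 246 to 260 CPM in the 6 treated libraries, with no overlap. Its log2 fold change of -0.57 ± 0.15 (adjusted p = 0.00683) was just under the fold minimum, and PBS replicate 1 was the highest library. EIF2S1 was named after its values were seen.

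For the 4 eIF2 kinases edgeR called 0 members, as did DESeq2, and 3 had an unadjusted p under 0.05, which 61.1% of all genes tested had. EIF2AK1, the heme-regulated kinase, had the highest level of the 4 per kilobase in PBS tumors, 53.4 ± 7.90 CPM per kilobase (SD, n = 3). It had 196, 251 and 260 CPM in PBS tumors, 254, 236 and 219 CPM in the P-DXd-titled group and 221, 225 and 220 CPM in the T-DXd-titled group, overlapping groups with a log2 fold change of -0.04 ± 0.09 (SE, adjusted p = 0.723 in edgeR). EIF2AK3, the kinase PERK of the endoplasmic reticulum, had the highest value of the 4, 0.46 ± 0.20 (adjusted p = 0.0675), and EIF2AK2, the double-stranded RNA sensor PKR, the lowest, -0.32 ± 0.12 (adjusted p = 0.0337).

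For the 14 genes of eIF3, the scaffold on the small subunit, edgeR called 0 members, as did DESeq2, and 6 had an unadjusted p under 0.05, against 61.1% of all genes tested. Their log2 fold changes lay between -0.34 and 0.23 with a median of -0.15, 3 positive and 11 negative, and the median was -0.02 without PBS replicate 1. EIF3G, an RNA-binding subunit, had the highest level per kilobase, with 318, 253 and 246 CPM in PBS tumors, 263, 298 and 304 CPM in the P-DXd-titled group and 269, 275 and 321 CPM in the T-DXd-titled group. The groups overlapped, with a log2 fold change of 0.08 ± 0.10 (SE, adjusted p = 0.496 in edgeR). The adjusted p alone was passed by 5 of the 14 eIF3 genes, below the 55.7% of all genes tested, and the lowest adjusted p was that of EIF3B, a core subunit, with a log2 fold change of -0.34 ± 0.06 (adjusted p = 0.00074). EIF3C and EIF3CL are near-identical copies whose counts are uncertain.

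Of the 6 genes of start codon choice and scanning, EIF1AY rose, from 14 to 21 counts in PBS and 10 to 40 counts in treated libraries. It is a Y-linked copy of EIF1AX, a near-identical gene, so its few counts are uncertain. Its level was 0.193, 0.109 and 0.187 CPM in PBS tumors. The P-DXd-titled group had 0.322, 0.532 and 0.152 CPM and the T-DXd-titled group 0.455, 0.538 and 0.411 CPM. P-DXd-titled replicate 3 lay among the PBS libraries. This gave a log2 fold change of 1.3 ± 0.45 (SE, adjusted p = 0.0286 in edgeR) and the call was lost without PBS replicate 2 (1.07, adjusted p = 0.11), PBS replicate 3 (1.42, adjusted p = 0.052) or T-DXd-titled replicate 2 (1.2, adjusted p = 0.0542). EIF1AX, named after its values were seen, had a log2 fold change of -0.51 ± 0.12 (adjusted p = 0.00495), under the fold minimum. It had 145, 97.1 and 97.9 CPM in PBS and 75.0 to 86.3 CPM in treated libraries, with no overlap. PBS replicate 1 lay far above the other PBS libraries.

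EIF1, which guards the choice of start codon, had the highest level of that group per kilobase. It had 664, 502 and 500 CPM in PBS tumors, 641, 1058 and 673 CPM in the P-DXd-titled group and 746, 757 and 737 CPM in the T-DXd-titled group. P-DXd-titled replicate 2 was the highest and P-DXd-titled replicate 1 lay below PBS replicate 1, so the groups overlapped. The log2 fold change was 0.47 ± 0.16 (SE, adjusted p = 0.0272 in edgeR), under the fold minimum. Without PBS replicate 1 it was 0.63 (adjusted p = 0.00442), which was called. In 8 of the 9 settings with 1 library left out EIF1 was not called. Its log2 fold change was 0.36 without P-DXd-titled replicate 2, and its edgeR adjusted p was 0.101 without PBS replicate 2.

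Of the 5 genes of subunit joining and late steps, EIF5AL1 rose, and it is a near-identical copy of EIF5A whose counts are uncertain. It had 5.90, 3.50 and 2.48 CPM in PBS tumors, 5.10, 11.2 and 6.85 CPM in the P-DXd-titled group and 8.17, 7.35 and 6.91 CPM in the T-DXd-titled group. P-DXd-titled replicate 2 was highest, and P-DXd-titled replicate 1 lay below PBS replicate 1. The log2 fold change was 0.94 ± 0.29 (SE, adjusted p = 0.0188 in edgeR), and the call was lost without PBS replicate 2 (0.86, adjusted p = 0.068) or PBS replicate 3 (0.70, adjusted p = 0.066).

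EIF5A, a hypusinated factor that relieves stalled ribosomes, had the highest level per kilobase of all 56 members, 580 ± 195 CPM per kilobase in PBS (SD, n = 3). It had 1017, 609 and 572 CPM in PBS tumors, 514, 692 and 560 CPM in the P-DXd-titled group and 564, 536 and 578 CPM in the T-DXd-titled group. PBS replicate 1 was far above the rest and the groups overlapped, with a log2 fold change of -0.35 ± 0.17 (SE, adjusted p = 0.0942 in edgeR) that became -0.03 without that library (adjusted p = 0.79). EIF5B, the GTPase of subunit joining, was named after its values were seen. It had 245, 210 and 203 CPM in PBS and 149 to 175 CPM in the 6 treated libraries, with no overlap, and a log2 fold change of -0.46 ± 0.08 (adjusted p = 0.000843).

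Ratios of related genes within a library do not depend on how libraries are scaled. The counts of EIF4EBP1 over EIF4EBP2 had a log2 ratio of -1.05 to -0.40 in PBS and -1.83 to -1.47 in treated libraries, a difference of -0.93 (exact permutation test, two-sided, p = 0.0119, adjusted p = 0.0238 over the 6 ratios tested). EIF4E, the cap-binding protein, over EIF4E2, a repressive relative, differed by -0.54, and EIF4G1 over EIF4G2 by -0.48, each with the same exact p and adjusted p. The ratios use the same libraries as the fold changes above and are not independent of them. Without PBS replicate 1 the differences were -0.75 (EIF4EBP1 over EIF4EBP2), -0.37 (EIF4E over EIF4E2) and -0.54 (EIF4G1 over EIF4G2). In these 3 ratios all 6 treated libraries lay below all 3 PBS libraries, and this p is the smallest that 84 divisions of 6 against 3 can give; without PBS replicate 2 the exact p of EIF4G1 over EIF4G2 was 0.0714. EIF4G1 over EIF4G3 differed by -0.34 (exact p = 0.0357, adjusted p = 0.0536), from 3.70 to 3.91 in PBS and 3.22 to 3.68 in treated libraries, without overlap. EIF5A over EIF5A2 differed by 0.11 (exact p = 0.583) and EIF1 over EIF1B by 0.10 (exact p = 0.488). EIF4A1 over EIF4A2 had a log2 ratio of -6.29 to -4.58 in PBS and -9.22 to -8.24 in treated libraries, given without a test.

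**Figure D4:**
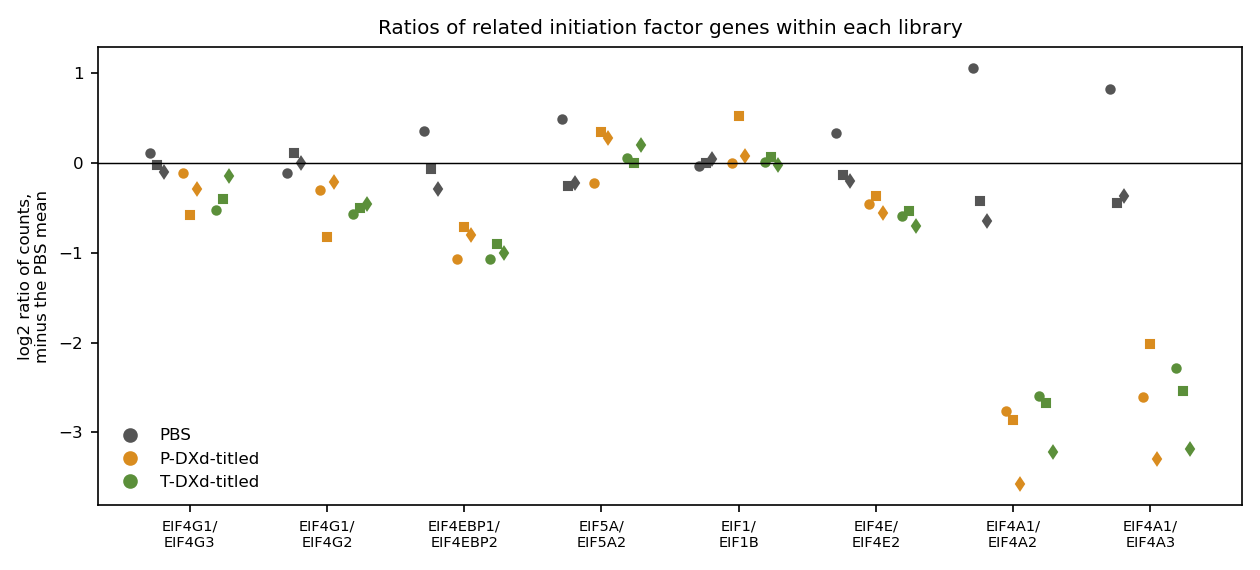
Log2 ratios of counts of 8 pairs of related genes within each of 9 libraries, on a vertical axis in log2 units after subtraction of the PBS mean, with marker shapes for replicates. The treated libraries lie below all PBS libraries for EIF4EBP1/EIF4EBP2, EIF4E/EIF4E2, EIF4G1/EIF4G2, EIF4G1/EIF4G3 and both EIF4A1 ratios, and overlap PBS for EIF5A/EIF5A2 and EIF1/EIF1B.

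Other genes of translation were read in the same fit. Of 47 elongation, termination and regulatory genes, 46 were tested, 3 rose and 4 fell in the 6 treated tumors, against 32.2% of all genes tested (15.2% higher and 17.1% lower), with a median log2 fold change of -0.11. PPP1R15A, the stress-induced partner of the phosphatase that acts on eIF2, had 67.9 ± 6.82 CPM in PBS tumors, 128 ± 15.3 CPM in P-DXd-titled tumors and 130 ± 9.43 CPM in T-DXd-titled tumors (SD, n = 3), a log2 fold change of 0.93 ± 0.10 (SE, adjusted p = 2.9e-05 in edgeR). PDCD4, an inhibitor of eIF4A, rose by 0.63 ± 0.12 (adjusted p = 0.00117), the opposite direction to EIF4A1.

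EEF1A2, the elongation factor of muscle and nerve, rose by 2.85 ± 0.61 (SE, adjusted p = 0.00247 in edgeR), with 3.47 ± 1.80 CPM in PBS tumors, 32.2 ± 30.2 CPM in P-DXd-titled tumors and 18.0 ± 1.84 CPM in T-DXd-titled tumors (SD, n = 3), while the 6 skeletal muscle markers were all called higher; whether the muscle signal accounts for it was not tested. Of the genes that fell, ABCE1, which recycles ribosomes, had a log2 fold change of -0.80 ± 0.13 (adjusted p = 4e-04), BZW2, an eIF5 mimic, -0.77 ± 0.14 (adjusted p = 0.000764), DENR, a reinitiation factor, -0.65 ± 0.10 (adjusted p = 0.000425) and EEF1E1, a synthetase complex subunit, -0.65 ± 0.16 (adjusted p = 0.0048).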

How the data were processed

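RNA-Seq was performed on 9 PC3 xenografts. Per the series record and the study's general RNA-Seq methods, reads were trimmed (Cutadapt), mapped to GRCh38.p13 (STAR) and assigned to genes (featureCounts) by the authors, and the 2 deposited tables hold raw counts. Removal of mouse reads, the strand setting and the treatment of overlapping genes are not given in the sources used here. The listed coordinates are on another build: all 56 members have an entry in GENCODE v44 and 0 share its coordinates, so gene positions in the tables are not printed, and the number of per-sample columns left unused was 0.

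Groups came from titles. Differential expression was tested in R 4.3.3 with edgeR 4.0.16 (TMM, filterByExpr, two-sided quasi-likelihood F test, Benjamini-Hochberg over all genes tested), on 6 libraries for each pair of groups and all 9 for both conjugates against PBS, and calls needed an adjusted p of at most 0.05 and a fold change of at least 1.5. The method was tested on simulated data. CPM came from edgeR's cpm function, and levels per kilobase divide CPM by the canonical GENCODE v44 transcript length. Ratios of gene pairs were tested with an exact permutation test over 84 divisions. No 2 libraries of a group were duplicates within sampling noise.

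Members and lists were chosen with earlier results of these data known. Named with every library's value were EIF4A1, EIF4A2, EIF4A3, members called in any comparison and the member of each complex with the highest level per kilobase in PBS; others named were chosen after their values were seen. Alternatives were DESeq2 1.42.0, other scalings and filters, glmTreat, no fold minimum, 1 fit of 9 libraries, a block on a digit of the animal code and leaving out each library. Leaving out PBS replicate 1 and P-DXd-titled replicate 2 together was chosen after seeing the data. Promoters and motifs came from RefSeq (GRCh38.p14); protein sequences were not used here.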

Additional observations from a re-analysis of the deposited data

Results flagged for a closer look

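Among the 16 named members, 4 had 1 of the 6 treated libraries far from the other 5, with a gap to the nearest that exceeded Dixon's 95% critical share of the range, where chance flags about 1 in 20 groups. In each case the library was P-DXd-titled replicate 2, the one with the high skeletal muscle markers. EIF1 had 1058 CPM there and 641 to 757 CPM in the other 5 libraries. EIF4A2 had 558 CPM there against 374 to 419 CPM. EIF4G2 had 1747 CPM there against 1252 to 1436 CPM. EIF5A had 692 CPM there against 514 to 578 CPM. The part of the muscle signal in these values was not tested.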

How the results depend on the processing

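The number of members called stayed within 1.5 times its value under DESeq2, RLE, upper quartile and total count scaling, no filter or 10 counts in every library, the animal code block and all 9 libraries in 1 fit. Changing the threshold moved it: glmTreat left 1 member in P-DXd-titled tumors (EIF4A1), and 2 (EIF4A1 and EIF4E3) in T-DXd-titled tumors and with both conjugates, while no fold minimum gave 7, 17 and 29. With no fold minimum, 34.0%, 42.3% and 55.7% of all genes were called in the same 3 comparisons. Without 1 library, 3 to 6, 4 to 8 and 6 to 9 members were called in the P-DXd-titled, T-DXd-titled and joined comparisons. The share of all genes called moved too, so these counts alone do not show a change particular to the members. In P-DXd-titled tumors that share was 25.0% in the main setting and far lower under glmTreat. It was also lower without any 1 library (18.2% without PBS replicate 2) except PBS replicate 3, where it was higher (25.8%). Without PBS replicate 1 it was only slightly lower, while 6 members were called. Without both PBS replicate 1 and P-DXd-titled replicate 2, a setting chosen after seeing the data, 5 were called in the joined comparison, EIF4A1, EIF4EBP1, EIF4E3, EIF2S3L and EIF5AL1. In T-DXd-titled tumors with 1 library left out, the call of EIF2S3L was kept only without PBS replicate 1 and that of EIF1AY only without PBS replicate 1 or 3 (EIF4G1 gained a call without PBS replicate 3 or T-DXd-titled replicate 3), while in P-DXd-titled tumors that of EIF2B5 was lost without PBS replicate 1 or P-DXd-titled replicate 3. The animal code block ended the call of EIF1AY in T-DXd-titled tumors (edgeR adjusted p = 0.0508) and added EIF5AL1 (adjusted p = 0.0348), which DESeq2 (0.0115), total counts (0.0439), upper quartile (0.0484), RLE (0.0494) and no filter (0.0497) also called there. In P-DXd-titled tumors DESeq2 and the fit of 9 libraries added EIF2S3L (0.0122 and 0.0172) and EIF5AL1 (0.0362 and 0.0453). The medians of the members without 1 library ranged from -0.19 to -0.02, -0.20 to -0.03 and -0.20 to -0.02, and between the conjugates from -0.03 to 0.03.

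Only members that were not called changed sign. In P-DXd-titled tumors EIF2AK1 was -0.0118 and EIF4A3 -0.0236 with total counts, and EIF4A3 was -0.00903 with 10 counts in every library and -0.0143 with 9 libraries in 1 fit. Without any 1 library or both of those named, in P-DXd-titled tumors EIF2AK1 ranged from -0.106 to 0.082, EIF4A3 from -0.0678 to 0.109, EIF4G2 from -0.181 to 0.0747 and EIF5A from -0.463 to 0.00472. In the joined comparison EIF2AK1 ranged from -0.16 to 0.0348, EIF4A3 from -0.0332 to 0.12 and EIF4G2 from -0.123 to 0.0532, and in T-DXd-titled tumors EIF4G2 from -0.132 to 0.0274. The ratio EIF5A/EIF5A2 ranged from -0.0212 to 0.353. EIF4G1/EIF4G3 ranged from -0.39 to -0.28, with an exact p of 0.0536 to 0.107 in 4 of the 9, and EIF4G1/EIF4G2 from -0.54 to -0.41, with an exact p of 0.0714 without PBS replicate 2. The causes were not tested.

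Groups of 3 limit small changes, and 10 to 40 counts limit EIF1AY. No paired analysis was possible because replicate numbers follow accession order and the labels tie no animals across groups; the block used a digit that the animal codes share, whose meaning the labels do not give.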
